A study of Mus musculus with 12 samples.

Results

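The genes described here make up the MHC class I system and the interferon response of lung group 2 innate lymphoid cells (ILC2s). They were chosen by symbol from the 2 deposited tables of genes that differed between tdTomato- and tdTomato+ ILC2s: MHC genes (symbols starting with H2-), *B2m*, the peptide loading genes *Tap1*, *Tap2* and *Tapbp*, *Nlrc5*, the interferon regulatory factors (IRFs) and their binding proteins, the interferon receptors, and the interferon-induced families Ifi, Ifit, Ifitm, Gbp, Isg, Oas, *Xaf1* and *Bst2*. The rule found 28 of the 3439 listed genes. Of these, 27 stood in the table of genes lower in tdTomato+ ILC2s and 1, *Ifi213*, stood in the table of higher genes. Among all listed genes, 2906 (84.5%) stood in the table of lower genes and 533 in the table of higher genes. The tables hold only genes that had passed the authors' comparison, so the split of the members between them was not tested.

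Both populations came from lungs of male mice of the genotype TIGIT-Cre-ERT2:Rosa26-LSL-tdTomato, named *Tigit fm*, and both had received papain and tamoxifen. Papain is a protease that serves as an airway allergen. Tamoxifen turns on a Cre recombinase made from the *Tigit* locus, which removes a stop cassette before tdTomato, so that cells carrying TIGIT and their progeny stay red. tdTomato+ ILC2s thus had TIGIT at some time during tamoxifen, tdTomato- ILC2s had not been marked, and no untreated mice entered the RNA data. The labels list 4 RNA libraries of each population, sorted as small pools of cells and prepared with a stranded low-input kit. They also list 2 ATAC-seq libraries of each, which are not analysed here. The deposited tables give 1 average level per gene over the libraries and none for a single library. The spread between replicates and the depth of each library are therefore unknown, no test was possible, and every level below is the authors' average of both populations together. In bulk samples, fewer cells of a type and less RNA per cell cannot be told apart.

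MHC class I molecules display peptides from inside a cell on its surface. Each consists of a polymorphic heavy chain and the light chain beta-2 microglobulin, and it is loaded in the endoplasmic reticulum with peptides that the proteasome cuts and the transporter TAP pumps in. Interferons raise most of these genes: type I interferons act at interferon-stimulated response elements (ISREs), interferon-gamma acts at gamma-activated sites (GAS) and through IRF1, and NLRC5 acts at an upstream module of X and Y boxes that MHC genes share.

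The ILC2 identity of the cells was checked on markers. All 12 genes of the ILC2 list, which also holds *Ptprc*, a gene of all leukocytes, were listed, each in the table of lower genes, among them *Il1rl1*, which encodes the IL-33 receptor (average log2 CPM 9.98), *Gata3* (8.79) and *Il7r* (8.96). Of 6 T cell markers only *Cd3g* was listed (6.12), and of 5 dendritic cell markers only *Cd74* (6.90). None of the 3 B cell, 3 NK cell, 6 macrophage, 2 epithelial and 2 endothelial markers was listed. The lowest average log2 CPM in either table was 5.00, so a gene that is not listed either had a level below that or did not pass the authors' comparison, and the tables do not separate these. Whether other cells contributed to the genes described here was not tested.

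The listed genes covered the families unevenly. In the GENCODE M21 annotation, 113 protein-coding genes have a symbol that fits the rule, and the 28 listed ones were 24.8% of them, against 15.5% of all 21951 protein-coding genes (3408 listed). *B2m* and *Nlrc5* are single genes and both were listed. Peptide loading had 3 of 4 genes listed (not *Tapbpl*), the interferon receptors 3 of 4 (not *Ifnar2*), the IRF2-binding proteins 2 of 3 (not *Irf2bp1*) and the IRFs 4 of 9. Of 24 class I heavy chain genes of the D, K, Q, T and M regions 7 were listed, of 9 class II and related genes 2, of 11 interferon-activated 200 genes 3, and of 10 guanylate-binding protein genes 2. The typical antiviral families were missing from both tables: 0 of 11 Oas genes, 0 of 7 Ifitm genes, 0 of 6 Ifit genes, 0 of 3 Isg genes, 0 of 7 other Ifi genes, and neither *Bst2* nor *Xaf1*. For all 85 genes that were not listed, among them *H2-Ke6*, no direction is known.

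**Figure D1:**
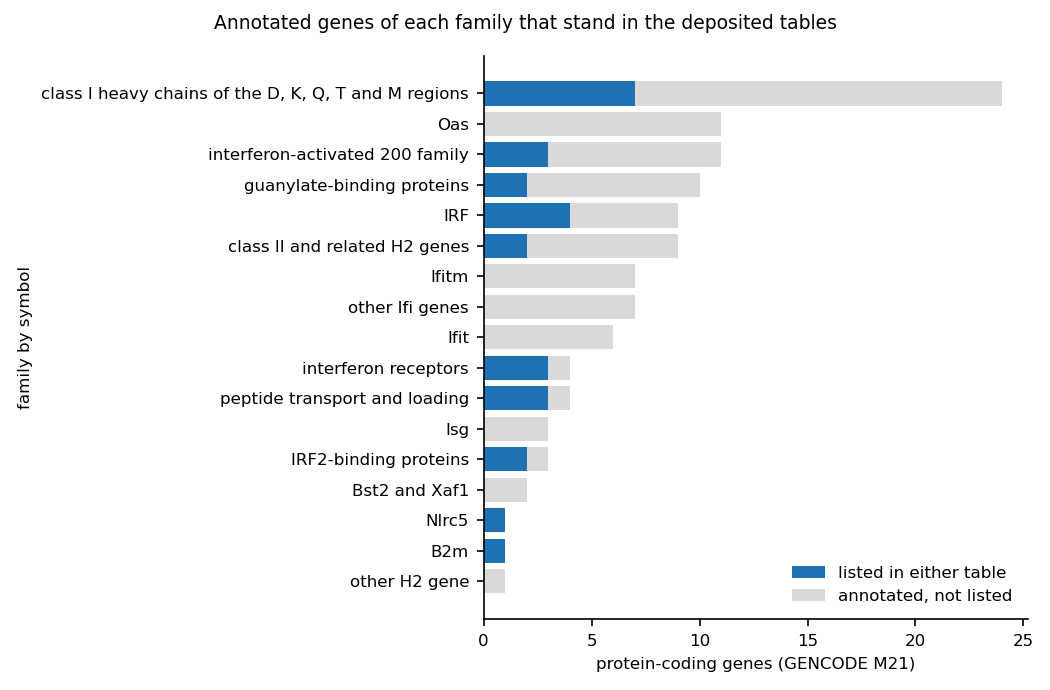
Number of protein-coding genes in the GENCODE M21 annotation (x axis) for each family that the symbol rule takes in (y axis), with listed genes in blue and genes in neither table in grey. The peptide loading genes were listed as 3 of 4 and the class I heavy chains as 7 of 24, whereas the Oas, Ifitm, Ifit and Isg families had 0 listed genes.

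Levels of single genes were compared with each other per length, as the authors' average CPM (counts scaled to library size) divided by the exonic length in kb. On this scale the members ranged from 4.74 CPM per kb (*Ifi213*) to 1053 CPM per kb (*B2m*). Their median of 18.1 CPM per kb compares with 13.7 CPM per kb over all listed genes, and 18 of 28 lay above the latter. Within the table of lower genes, the members had a median of 18.4 CPM per kb, against 15.4 CPM per kb for all genes there. Without *B2m*, *H2-D1* and *H2-K1* the median of the members was 16.7 CPM per kb. Without scaling to length, the 28 genes together made up 0.823% of the CPM of all listed genes. Of their summed 4320 CPM, *B2m* and the 7 class I heavy chains accounted for 2837 CPM.

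**Figure D2:**
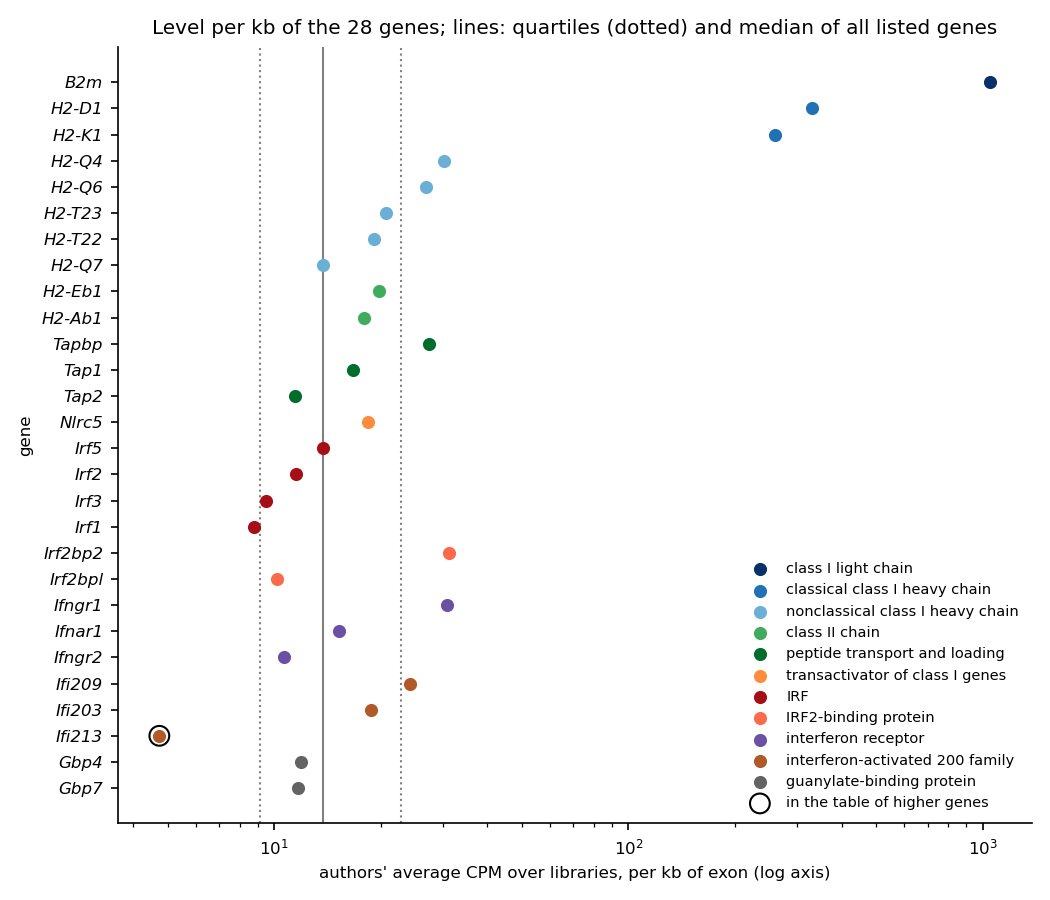
Authors' average CPM over all libraries per kb of exon (x axis, log scale) for each of the 28 genes (y axis), grouped and coloured by role. The solid line is the median of all listed genes (13.7 CPM per kb), the dotted lines are their quartiles, and the circled point is *Ifi213*, the gene in the table of higher genes. *B2m*, *H2-D1* and *H2-K1* lie far to the right at 1053, 329 and 260.2 CPM per kb, and the other 25 lie between 4.74 and 31.1 CPM per kb. There is no error bar because no single library has a value.

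Both chains of the classical class I molecule had high averages. *B2m* (ENSMUSG00000060802), the invariant light chain, lies at chr2:122147686-122153083 of GRCm38 on the plus strand with 4 exons. Its average was 9.82 log2 CPM and 1053 CPM per kb, rank 12 of the 3436 listed genes with a length. *H2-D1* (chr17:35262730-35267499, plus strand) and *H2-K1* (chr17:33996017-34000347, minus strand) encode the classical heavy chains that present peptides to CD8 T cells. They averaged 9.73 and 9.58 log2 CPM, or 329 and 260.2 CPM per kb, ranks 40 and 58. Per kb, *B2m* stood 3.20 times above *H2-D1* and *H2-D1* 1.26 times above *H2-K1*, and whether these ratios exceed the spread between libraries is not known.

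The nonclassical heavy chains had much lower averages. *H2-Q4* averaged 30.1 CPM per kb (6.29 log2 CPM), so that *H2-D1* stood 10.9 times and *H2-K1* 8.63 times above it. *H2-Q6* and *H2-Q7* belong to the genes of the Qa-2 antigen and averaged 26.9 and 13.8 CPM per kb (5.81 and 5.88 log2 CPM). *H2-T23*, which encodes Qa-1, a ligand of the NKG2 receptors of NK cells, averaged 20.7 CPM per kb (5.90 log2 CPM). *H2-T22*, whose product is recognised by some gamma-delta T cells, averaged 19.1 CPM per kb (6.03 log2 CPM). All 7 heavy chain genes lay above the median of the listed genes per kb, *H2-Q7* only just, and all 7 stood in the table of lower genes. Against the median of that table alone (15.4 CPM per kb), *H2-Q7* lay below and the others above.

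Of the class II genes only a pair of beta chains was listed, also in the table of lower genes. *H2-Eb1* and *H2-Ab1*, the beta chains of I-E and I-A, averaged 19.8 and 17.9 CPM per kb (5.26 and 5.52 log2 CPM). *H2-Aa*, the alpha chain partner of *H2-Ab1*, was not listed. The annotation holds no protein-coding gene for an alpha chain of I-E that fits the rule. *Cd74*, the invariant chain that accompanies class II molecules, was in the table of lower genes at 71.2 CPM per kb (6.90 log2 CPM), while *Ciita*, the class II transactivator, was not listed. *Cd74* is also among the dendritic cell markers above, of which *Flt3*, *Zbtb46*, *Itgax* and *Ciita* were not listed. The cells had been sorted as lineage-negative leukocytes with CD127, CD25 and ST2 on their surface. The part of dendritic cells in the class II values was not tested.

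Peptide supply was listed along most of its path. *Tapbp* encodes tapasin, which holds the heavy chain at the transporter, and averaged 27.4 CPM per kb (6.64 log2 CPM). The paired subunits of the transporter, *Tap1* and *Tap2*, averaged 16.7 and 11.5 CPM per kb (6.51 and 5.44 log2 CPM), a ratio of 1.46 per kb. *Psmb8*, an immunoproteasome subunit that lies between these genes on chromosome 17, was in the same table at 24.9 CPM per kb, as were the proteasome activators *Psme1* (60.4 CPM per kb) and *Psme2* (27.4 CPM per kb), while *Psmb9* and *Psmb10* were not listed. The chaperones *Pdia3* (108 CPM per kb), *Calr* (49.3 CPM per kb) and *Canx* (44.7 CPM per kb) and the trimming peptidase *Erap1* (16.5 CPM per kb) were all in the table of lower genes. *Nlrc5* (chr8:94434356-94527272), the transactivator of class I genes, averaged 7.28 log2 CPM, but with its exonic length of 8493 bases this was 18.4 CPM per kb, 14.2 times below *H2-K1*.

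The IRFs and their binding proteins had a median of 10.8 CPM per kb, against 28.5 CPM per kb for the heavy chains and *B2m* together. *Irf1*, an activator of class I genes, averaged 8.77 CPM per kb (5.12 log2 CPM). *Irf2*, which binds the same element and can oppose it, averaged 11.5 CPM per kb (6.41 log2 CPM). *Irf3*, which acts after nucleic acid sensing, averaged 9.50 CPM per kb (5.03 log2 CPM), and *Irf5*, which acts after Toll-like receptors, 13.7 CPM per kb (5.32 log2 CPM). None of the 4 exceeded the median of the listed genes. *Irf2bp2*, a corepressor that binds IRF2, was higher at 31.1 CPM per kb (7.31 log2 CPM), and its relative *Irf2bpl* averaged 10.2 CPM per kb (5.38 log2 CPM). All 6 stood in the table of lower genes.

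Receptors of both interferon types were listed. *Ifngr1*, the ligand-binding chain of the interferon-gamma receptor, averaged 30.7 CPM per kb (6.45 log2 CPM), 2.88 times its partner *Ifngr2*, which recruits JAK2 and averaged 10.6 CPM per kb (5.32 log2 CPM). *Ifnar1*, a chain of the type I interferon receptor, averaged 15.3 CPM per kb (6.50 log2 CPM). Downstream of them, the kinases *Jak1* (53.6 CPM per kb), *Jak2* (49.0 CPM per kb) and *Tyk2* (8.79 CPM per kb) and the transcription factor gene *Stat3* (15.9 CPM per kb) were in the table of lower genes, and *Stat2* was not listed. Of 5 inhibitors of signalling, the phosphatases *Ptpn2* and *Ptpn6* were in the table of lower genes (15.3 and 11.9 CPM per kb), and *Socs1*, *Socs3* and *Usp18* were not listed.

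Among the interferon-induced genes, the 200 family was divided between the tables. Its proteins carry domains that bind DNA or other members of the family. *Ifi209* and *Ifi203* stood in the table of lower genes at 24.2 and 18.7 CPM per kb (6.42 and 6.97 log2 CPM). *Ifi213* stood in the table of higher genes at 4.74 CPM per kb (5.02 log2 CPM), the lowest of the 28 members and close to the 4.53 CPM per kb that was the median of all genes in that table. Its log2 CPM lay just above the lowest of any listed gene, 5.00, so the division rests on 1 gene near that limit. The guanylate-binding proteins *Gbp4* and *Gbp7*, large GTPases of the defence against intracellular microbes, averaged 11.9 and 11.7 CPM per kb (6.48 and 6.03 log2 CPM) and stood in the table of lower genes.

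Beyond the members, 66 further genes of antigen presentation and interferon signalling were looked up. In the table of lower genes 31 were found, in the table of higher genes 0, and 35 were not listed. Among all protein-coding genes 15.5% were listed, and of all listed genes 84.5% stood in the table of lower genes. The list was chosen with earlier results known and was not tested, so nothing particular to it is read from these counts. All 4 chaperone and trimming genes were listed, 3 of 5 immunoproteasome genes, 5 of 11 genes of MHC transcription and class II, 3 of 8 of nucleic acid sensing, and 9 of 27 interferon-stimulated effectors. Those 9 included *Ly6e* (96.6 CPM per kb), which restricts viral entry, *Samhd1* (29.3 CPM per kb), which degrades nucleotides, and *Rnf213* (16.4 CPM per kb). The effectors induced most strongly by interferon in many cells, such as *Mx1*, *Rsad2*, *Cxcl9*, *Cxcl10*, *Irgm1* and *Iigp1*, were not listed. *Cgas* was not listed, whereas *Sting1*, its adaptor, was in the table of lower genes at 21.3 CPM per kb.

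The members were clustered in the genome. On chromosome 17, 12 of them lay in the MHC within 2.13 Mb, from *Tapbp* (start 33915899) to *H2-T22* (end 36042747). This interval holds 128 protein-coding genes, of which 34 (26.6%) were listed, 33 in the table of lower genes and 1, *Tnxb*, in the table of higher genes. The ends of the interval were set by members, and 12 of the 34 are members, which the rule took from the listed genes. That choice raises the share of the interval, so nothing is read from it. The shares over all features were 15.5% of protein-coding genes listed and 84.5% of listed genes in the table of lower genes, and the difference was not tested. On chromosome 1, *Ifi213*, *Ifi209* and *Ifi203* lay within 0.376 Mb together with the relative *Mndal*, which was in the table of lower genes at 6.69 log2 CPM. *Ifi213* at chr1:173566283-173599274 and *Ifi209* at chr1:173630917-173647928 were thus neighbours in opposite tables. On chromosome 16, *Ifnar1* and *Ifngr2* lay within 0.0804 Mb. Of the remaining 11, 3 lay on chromosome 8 and 8 on a chromosome of their own.

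The promoters of the members were searched for the elements named above. RefSeq promoters (GRCm38.p6, from 250 bases before to 50 bases after the start) were found for 24 of the 28 genes, as 27 promoters. No promoter was found for *Nlrc5*, *H2-Ab1*, *Tap2* and *Gbp4*. The ISRE was taken as GAAANNGAAA on either strand and was found in 7 member genes, or 25.9% of member promoters, against 3.44% of all 32851 promoters and 3.43% of the 3558 promoters of listed genes. The matches began at -139 bases from the start in *B2m*, -53 in *Gbp7*, -191 in *H2-T22*, -124 in *H2-T23*, -35 in *Ifi203*, -73 in *Ifi213* and -241 in *Irf2*. The stretches around them are given to show the letters matched, 5′ to 3′ on the strand of the gene, with the match in capitals. A match that lies on the other strand is read as its reverse complement.
B2m, chr2:122147508-122147597, plus strand: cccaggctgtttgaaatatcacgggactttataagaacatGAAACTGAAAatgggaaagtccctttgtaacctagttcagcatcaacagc
H2-T22, chr17:36042884-36042973, minus strand: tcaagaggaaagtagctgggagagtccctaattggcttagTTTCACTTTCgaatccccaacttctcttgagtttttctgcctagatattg
H2-T23, chr17:36032776-36032865, minus strand: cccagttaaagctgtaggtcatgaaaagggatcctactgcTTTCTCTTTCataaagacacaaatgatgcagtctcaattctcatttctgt
Irf2, chr8:46739495-46739553, plus strand: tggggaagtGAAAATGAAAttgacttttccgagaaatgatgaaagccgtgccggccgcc
Ifi203, chr1:173942478-173942567, minus strand: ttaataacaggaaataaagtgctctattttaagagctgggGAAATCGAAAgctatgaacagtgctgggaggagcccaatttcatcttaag
Ifi213, chr1:173599296-173599385, minus strand: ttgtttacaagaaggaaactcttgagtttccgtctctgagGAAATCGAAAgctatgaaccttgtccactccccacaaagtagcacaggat
Gbp7, chr3:142530243-142530332, plus strand: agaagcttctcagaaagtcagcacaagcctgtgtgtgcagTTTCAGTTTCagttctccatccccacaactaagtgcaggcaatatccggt

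*Ifi203* and *Ifi213*, which stood in opposite tables, held the same match with the same 9 bases after it, in *Ifi203* in 1 of its 2 promoters. Genes of a family share ancestry, so their matches are not separate observations. GAS, taken as TTCNNNGAA, was found in 4 member genes (*Gbp7*, *Ifnar1*, *Irf1* and *Irf2*), or 14.8% of member promoters, against 8.30% of all promoters and 6.52% of those of listed genes. A match is a description of the letters and shows no binding, and the absence of a match says only that these letters are not in this window.

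The Y box was the element found in most members. ATTGG, on either strand, was found in 17 of the 24 member genes, or 66.7% of member promoters, against 37.4% of all promoters and 36.3% of those of listed genes, and *B2m* and all 7 heavy chain genes held it. The CRE core TGACG, part of the X2 box, was found in 9 member genes, or 37.0% of member promoters, against 20.8% of all promoters and 30.7% of those of listed genes. TATAA was found in 7 member genes, or 29.6%, against 24.9% and 15.1%. *Irf2bp2*, *Irf3* and *Irf5* had none of these elements.

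In 7 member genes, all of them MHC genes, ATTGG was followed by a second box in reverse, CCAAT, with the starts 23 to 25 bases apart. This pairing was noticed in the promoters of the members and then counted over all promoters with starts 22 to 26 bases apart, where 0.338% held it (0.590% of those of listed genes). Of the 8 H2 genes with a promoter, *H2-T23* alone lacked it, and 0 of the 16 other members had it. The stretches are given because they show this shared arrangement, with both boxes in capitals and on the strand of the gene.
H2-K1, chr17:34000320-34000398, minus strand: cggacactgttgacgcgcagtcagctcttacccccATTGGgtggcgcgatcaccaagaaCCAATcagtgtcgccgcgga
H2-D1, chr17:35262983-35263060, plus strand: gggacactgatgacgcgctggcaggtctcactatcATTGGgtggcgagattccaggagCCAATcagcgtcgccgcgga
H2-Q4, chr17:35379503-35379581, plus strand: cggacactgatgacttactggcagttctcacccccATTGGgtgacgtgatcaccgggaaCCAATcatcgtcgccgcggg
H2-Q6, chr17:35424736-35424814, plus strand: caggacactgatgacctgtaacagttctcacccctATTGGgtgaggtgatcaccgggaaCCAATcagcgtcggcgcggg
H2-Q7, chr17:35439080-35439158, plus strand: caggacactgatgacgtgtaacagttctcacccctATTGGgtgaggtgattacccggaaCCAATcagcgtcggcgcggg
H2-T22, chr17:36042786-36042865, minus strand: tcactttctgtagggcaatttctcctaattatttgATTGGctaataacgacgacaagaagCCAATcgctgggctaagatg
H2-Eb1, chr17:34305773-34305851, plus strand: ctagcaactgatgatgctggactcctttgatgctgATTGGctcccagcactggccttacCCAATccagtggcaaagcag

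*B2m* lies on another chromosome and held ATTGG without the second box. Its stretch is given because the CRE core TGACG starts 25 bases before ATTGG there, with both in capitals.
B2m, chr2:122147594-122147663, plus strand: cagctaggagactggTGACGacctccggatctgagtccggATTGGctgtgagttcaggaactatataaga

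The same order at a distance of 24 or 25 bases was found in *H2-D1*, *H2-K1* and *H2-Q7*, where TGACG can be read in lower case in the stretches above. Counted with starts 20 to 30 bases apart, 4 member genes held it, against 0.250% of all promoters and 0.562% of those of listed genes. Over the 300 bases, promoters of the heavy chain genes were identical at 79.9% of aligned positions between *H2-D1* and *H2-Q6*, 64.8% between *H2-D1* and *H2-K1* and 44.2% between *H2-T22* and *H2-T23*.

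**Figure D3:**
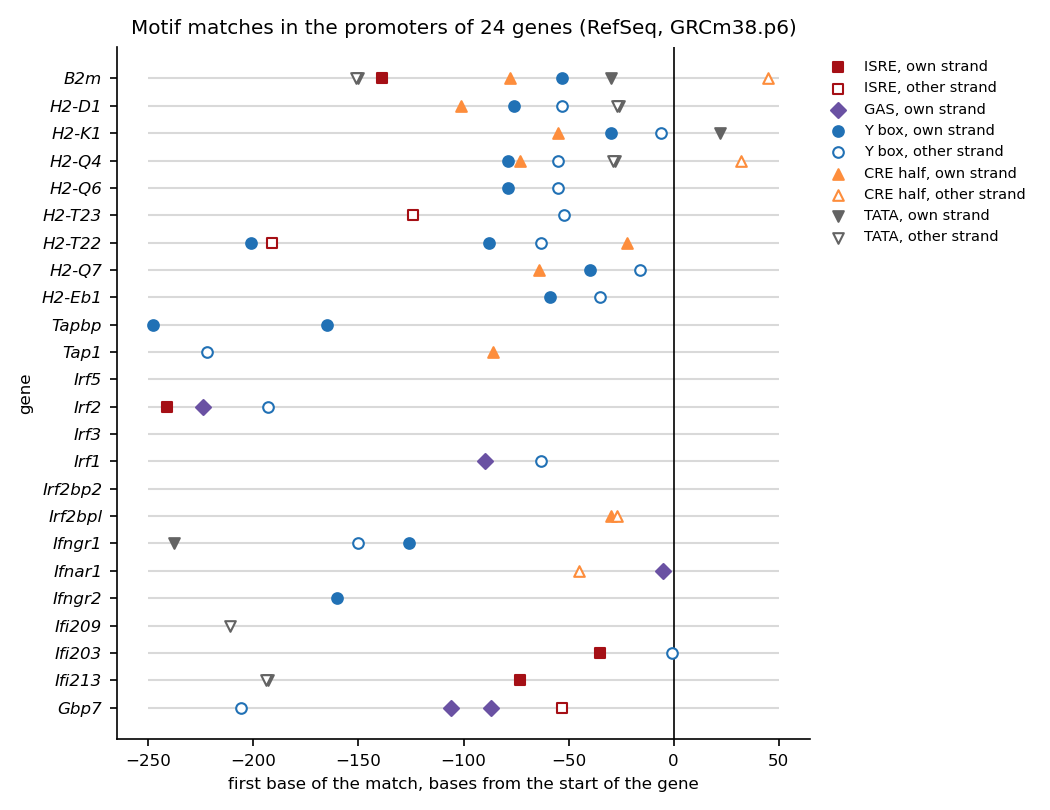
First base of each motif match relative to the start of the gene (x axis, in bases) in the promoters of 24 genes (y axis), with filled symbols for the gene's own strand and open symbols for the other. *H2-K1*, which has 2 overlapping promoters, is drawn from only 1 of them. The pairs of filled and open blue circles mark ATTGG followed by CCAAT in 7 MHC genes, and the red squares mark the ISRE in 7 genes at -241 to -35 bases.

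Several members are copies of each other, so their counts may have been divided between genes. Over the coding sequence, *H2-Q6* and *H2-Q7* were identical at 93.1% of aligned positions, *H2-D1* and *H2-K1* at 88.3%, and *H2-T22* differed most from the others (58.4% with *H2-Q4*). *Gbp4* and *Gbp7* were identical at 70.8%, *Tap1* and *Tap2* at 58.1%, *H2-Ab1* and *H2-Eb1* at 58.7% and *Ifi209* and *Ifi213* at 47%. Reads can be shared only where a stretch is the same in both genes. Of all 100-base windows of their transcripts, *Ifi209* shared 16.9% with another gene (*Ifi214*), *H2-Q7* 12.0% (most often with *H2-Q10*), *H2-Q6* 10.8% (most often with *H2-Q7*) and *Gbp7* 10% (most often with the pseudogene *Gm43802*). The levels of these 4 genes are therefore uncertain. *H2-T22* came next with 8.86% (most often with *H2-T10*), so its level is less secure as well. *H2-D1* and *H2-K1* shared 3.59% and 0.957%, *Ifi213* shared 3.30%, and 14 of the 28 members, among them *B2m*, *Nlrc5*, *Tap1*, *Tap2* and all 3 receptors, shared none.

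**Figure D4:**
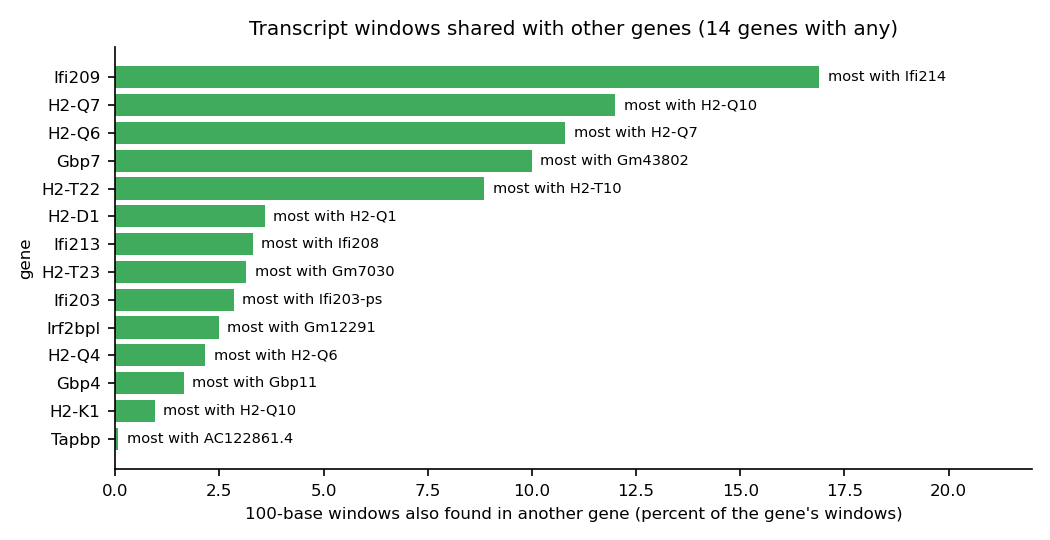
Percent of the 100-base windows of a gene's transcripts that are also found in another annotated gene (x axis) for the 14 members with any (y axis), with the gene that shares most of them beside the bar. *Ifi209*, *H2-Q7*, *H2-Q6* and *Gbp7* reach 10% or more, while the classical genes *H2-D1* and *H2-K1* lie at 3.59% and 0.957%.

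Exons of 13 members also overlap those of another annotated gene. The largest overlaps were on the opposite strand, with *A930015D03Rik* for *H2-T22* (29.4% of its exonic length), *Gm19412* for *Tapbp* (24.9%), *Gm26759* for *Irf2bp2* (20.5%), *Gm11131* for *H2-Q4* (19.1%) and *Tnpo3* for *Irf5* (14.1%). *Tap2* overlapped *Gm15821* by 14.1% and *Gm20496* by 4.36%, also on the opposite strand. The kit marks strand, but whether the counting used it is not given in the sources used here, so reads of these pairs may not have been told apart. On the same strand, *Gbp7* overlaps *Gm43802*, with which it shared most windows, by 637 bases (11.3%). Among the smaller overlaps on the same strand were *Tapbp* with *Zbtb22* (149 bases) and *Ifi203* with *Mndal* (37 bases). Strand cannot tell these pairs apart.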

How the data were processed

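RNA-seq of sorted tdTomato- and tdTomato+ lung ILC2s was used. The authors checked reads with FASTP, aligned them with STAR to GRCm39, counted them with featureCounts on the Ensembl annotation of that build and compared the populations with edgeR. The labels name mm10, and tool versions, strand setting, normalization and libraries used are not given in the sources used here. The deposited tables hold the authors' average log2 CPM per gene, and also their fold change, likelihood ratio, p-value and FDR, which were not used. They hold no column of a single library (0 left unused) and no TPM. The planned limma comparison of the populations could therefore not be run.

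Here, CPM was 2 to the power of the log2 CPM, divided by the union of exons in GENCODE M21 (GRCm38), found for 3436 of 3439 listed genes. Positions are GRCm38. Promoters are from RefSeq. Motifs were exact matches on both strands, and the motif search was tested on simulated sequences. Identity is over a global alignment (Biopython 1.88); planned protein alignments were replaced by coding sequences. Python 3.11.15 and pandas 2.3.3 were used. All members were named, and members, lists and motifs were chosen with earlier results of these data known. Some genes of the lists are not reported here.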

Additional observations from a re-analysis of the deposited data

How the results depend on the processing

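By average level without scaling to length, which favours long genes, the median member stood at percentile 46.8 of all listed genes, and at 46.8 among protein-coding genes and 45.8 within the table of lower genes alone. Per kb it stood at percentile 65.7, and with the longest transcript as the length at 59.4. The number of member genes with an ISRE was 7 on both strands, 4 on the own strand and 11 with 1 mismatch allowed, a form that 35.4% of all promoters held. For ATTGG it was 17 on both strands and 11 on the own strand. Of 16 alternatives these 4 moved the value beyond a tolerance, and the cause was not tested. The tolerance was a fixed ratio for counts, and for the percentiles 45.2 to 48.5 and, per kb, 64.1 to 67.2. It is not a spread between libraries. The other 12 stayed within it, though some changed the value. Without the bases after the start, GAS was found in 3 member genes instead of 4, ATTGG in 16 instead of 17 and TATAA in 6 instead of 7. For boxes 15 to 35 bases apart, chosen after seeing the data, the count stayed 7. The share of all promoters rose from 0.338% to 1.25%. No paired analysis was possible because the tables give no value of a single library; for that reason the other pseudocount, the filter, leaving out replicates and the replicate block were not run. The depth is unknown, so no interval or floor can be given for the levels, and they carry no error.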
